A study of Mus musculus with 12 samples.

Results

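Inhibitory checkpoint receptors were followed in CD4 T cells sorted from the mouse kidney after ischemia-reperfusion injury (IRI) and without it. The mice were WT or labelled CD4 Keap1 KO. The group holds 10 receptor genes, Ctla4, Tigit, Btla, Pdcd1 (encoding PD-1), Lag3, Havcr2 (TIM-3), Cd160, Cd200, Vsir (VISTA) and Cd96, taken by gene ID from the 52632 genes of the expression table. All 10 were found once, all had a mean of at least 1 FPKM (fragments scaled by transcript length and by the library's fragment total) over the 12 libraries, and none was listed at 0 in any library. The 4 groups had 3 libraries each: CD4 Keap1 KO after IRI, CD4 Keap1 KO control, WT after IRI and WT control, all on C57BL6/J. In the IRI groups both renal pedicles were clamped for 30 min and the kidneys were taken at 24 h. Sham surgery in the controls, the method of Keap1 deletion and the origin of replicate libraries from separate animals are not stated in the labels, and the p-values therefore cover only library-to-library spread, which may be technical. WT mice were bought and KO mice were bred in house, so genotype and source of the mice cannot be told apart.

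Checkpoint receptors are surface proteins that damp T cell activation. Cd200 encodes the ligand of the receptor CD200R1 and is counted with the receptors here. CTLA-4 competes with the costimulatory receptor CD28 for CD80 and CD86, and PD-1 recruits the phosphatase SHP-2 when it binds PD-L1 or PD-L2. TIGIT and CD96 bind CD155 (encoded by Pvr), which the activating receptor CD226 also binds, and BTLA and CD160 bind HVEM (Tnfrsf14), which is also bound by the activating ligand LIGHT (Tnfsf14). Many of these genes are raised by T cell activation, and Ctla4, Tigit and Pdcd1 are known markers of regulatory or chronically stimulated CD4 T cells.

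In the GRCm38 annotation 4 of the 10 genes lie on chromosome 16: Tigit (43648867 to 43664146, minus strand), Btla (45224315 to 45257670, plus strand), Cd200 (45382135 to 45409053, minus strand) and Cd96 (46035657 to 46120251, minus strand). Btla and Cd200 are 124464 bases apart. Ctla4 (60887000 to 60915832, plus strand) and Pdcd1 (94038305 to 94052553, minus strand) are on chromosome 1. Cd160 shares 68 of its 2642 exonic bases with Pdzk1 on the opposite strand, which averaged 0.548 FPKM. The strand setting of the quantification is not given in the sources used here. Reads of these 2 genes in that stretch may therefore not be separable. The RefSeq table (GRCm38.p6) holds a promoter for 9 of the 10 genes, the exception being Lag3. The 250 bases before the RefSeq start are given 5′ to 3′ on the coding strand for the 4 genes whose transcripts rose with IRI in WT mice and for Cd96, which fell. Capitals mark every match to the motifs searched.
Ctla4, chr1:60908775-60909024, + strand: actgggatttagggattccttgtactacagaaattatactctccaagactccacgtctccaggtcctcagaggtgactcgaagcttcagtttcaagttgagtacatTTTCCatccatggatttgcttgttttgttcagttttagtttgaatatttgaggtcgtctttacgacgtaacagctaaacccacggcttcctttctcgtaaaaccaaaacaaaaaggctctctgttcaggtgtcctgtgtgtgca
Pdcd1, chr1:94052554-94052803, - strand: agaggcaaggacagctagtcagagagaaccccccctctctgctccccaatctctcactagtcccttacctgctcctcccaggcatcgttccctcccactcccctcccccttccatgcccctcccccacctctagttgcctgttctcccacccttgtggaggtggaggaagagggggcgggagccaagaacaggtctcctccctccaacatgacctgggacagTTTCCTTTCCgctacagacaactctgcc
Btla, chr16:45224087-45224336, + strand: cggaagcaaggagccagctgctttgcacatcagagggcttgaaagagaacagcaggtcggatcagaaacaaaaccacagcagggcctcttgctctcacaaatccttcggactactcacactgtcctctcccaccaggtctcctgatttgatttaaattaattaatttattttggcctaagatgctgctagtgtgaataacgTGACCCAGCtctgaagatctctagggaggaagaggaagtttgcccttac
Tigit, chr16:43664185-43664434, - strand: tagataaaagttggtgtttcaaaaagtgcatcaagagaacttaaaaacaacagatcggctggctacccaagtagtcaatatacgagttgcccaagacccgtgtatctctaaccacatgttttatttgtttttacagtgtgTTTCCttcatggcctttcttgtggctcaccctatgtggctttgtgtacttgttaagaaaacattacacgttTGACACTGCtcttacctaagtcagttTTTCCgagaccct
Cd96, chr16:46120249-46120498, - strand: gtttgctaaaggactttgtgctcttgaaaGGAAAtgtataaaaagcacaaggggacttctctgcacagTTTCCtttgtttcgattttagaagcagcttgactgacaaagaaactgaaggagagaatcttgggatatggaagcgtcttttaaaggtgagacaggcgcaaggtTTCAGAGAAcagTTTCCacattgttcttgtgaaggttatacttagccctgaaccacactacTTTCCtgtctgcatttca

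The motifs searched on both strands were AP-1 (TGANTCA, in 6.75% of 32851 promoters of the same length), the NFAT core (GGAAA, 55.6%), STAT (TTCNNNGAA, 7.02%), forkhead (GTAAACA, 3.17%), TCF/LEF (CTTTGAT, 3.21%), T-box (GGTGTGA, 3.33%) and the antioxidant response element (TGACNNNGC, 10.2%), the element bound by NRF2, which KEAP1 holds in check. Tigit and Btla each carried a match to the antioxidant element, TGACACTGC 39 bases before the Tigit start and TGACCCAGC 49 bases before the Btla start. In the Ctla4 and Pdcd1 windows the NFAT core was the one motif matched, at 1 and 2 positions. Cd96 carried 4 NFAT cores and the STAT letters TTCAGAGAA 79 bases before its start. Of the windows not printed, that of Havcr2 held an AP-1 match and the second Cd160 promoter held NFAT, STAT and T-box matches, while Cd200 and Vsir held none. The AP-1 letters can lie within the antioxidant element, and no match here was shared by both. These matches are letters in short windows and say nothing of whether a factor was bound.

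The libraries carried the T cell label in their transcripts. Cd3e lay between 73.8 and 324 FPKM in all 12, Cd4 between 49.7 and 382 FPKM and Trac, the T cell receptor alpha constant gene, between 218 and 740 FPKM, while Cd8a did not exceed 7.62 FPKM. FPKM summed over all genes lay between 739969 and 2089551 per library. Of the 12 libraries, 3 stood apart: WT IRI 3 and WT control 3 had the smallest sums, and the abundant nuclear RNA Malat1 was listed at 0 in KO control 1. Keap1 was at 4.59 to 6.28 FPKM in KO IRI, 5.75 to 7.77 FPKM in KO control, 6.03 to 8.80 FPKM in WT IRI and 8.50 to 9.87 FPKM in WT control libraries, so the targeted gene was still counted in KO libraries, and the deleted part of it is not known from the labels. Between KO and WT, Keap1 differed by -0.28 after IRI and by -0.40 in controls on the log2(FPKM + 1) scale. Neither difference passed (limma adjusted p = 0.380 and 0.248). FPKM without counts leaves the depth of each library unknown.

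The receptors differed widely in level. Over the 12 libraries the mean levels were 98.8 FPKM for Ctla4, 72.8 for Vsir, 41.9 for Btla, 40.1 for Tigit, 23.4 for Cd96, 20.2 for Pdcd1, 12.1 for Cd200, 3.20 for Havcr2, 2.43 for Lag3 and 1.68 for Cd160. In WT control cells the order was Vsir at 76.3 ± 4.25 FPKM, Ctla4 at 37.0 ± 5.71, Cd96 at 23.4 ± 1.43, Tigit at 19.9 ± 4.18, Btla at 18.6 ± 3.31, Pdcd1 at 9.50 ± 2.09, Cd200 at 4.15 ± 0.39, Cd160 at 3.88 ± 1.64, Lag3 at 1.73 ± 0.62 and Havcr2 at 1.16 ± 0.75 (SD, n = 3). The neighbours Cd96 and Tigit, Tigit and Btla, Cd200 and Cd160, and Lag3 and Havcr2 lay within their spread of each other. In KO IRI cells Ctla4 led at 181 ± 50.9 FPKM, ahead of Vsir at 73.0 ± 15.6, Btla at 64.4 ± 6.51, Tigit at 58.9 ± 10.6, Pdcd1 at 33.5 ± 6.63, Cd200 at 23.1 ± 12.9, Cd96 at 18.8 ± 3.47, Havcr2 at 4.59 ± 1.86, Lag3 at 2.47 ± 0.70 and Cd160 at 0.711 ± 0.33 (SD, n = 3). In that order Vsir and Btla, Btla and Tigit, Pdcd1 and Cd200, and Cd200 and Cd96 lay within their spread of each other. Ctla4 was also first in WT IRI cells, at 112 ± 26.0 FPKM, and Vsir was first in KO control cells, at 103 ± 22.7 FPKM (SD, n = 3 each).

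**Figure D1:**
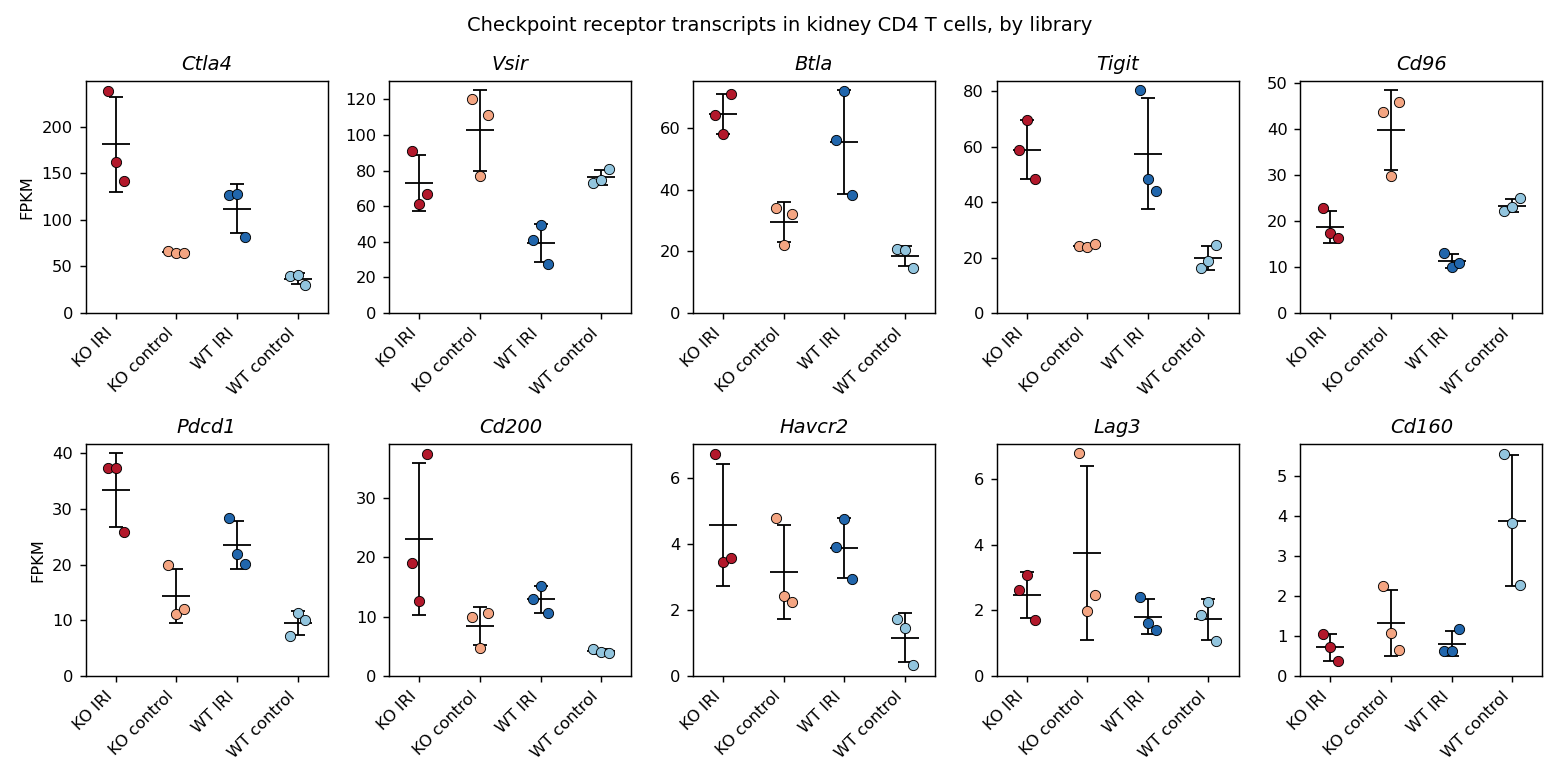
Each panel plots the FPKM of one receptor gene (vertical axis, linear, from 0) in the 12 libraries by group. Points are libraries and black bars are the group mean ± SD (n = 3). Ctla4, Tigit, Btla, Pdcd1 and Cd200 were higher in all 6 IRI libraries than in all 6 control libraries, while Vsir, Cd96 and Cd160 had lower means after IRI in both genotypes.

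The first comparison asked what IRI did to the receptors in each genotype. In KO cells Ctla4 and Tigit rose and Cd96 fell, so that 3 of 10 passed an adjusted p of 0.05, where 0.866% of the 19288 genes tested did (0.327% higher and 0.539% lower). In WT cells 4 receptors rose (Ctla4, Tigit, Btla and Pdcd1) and Cd96 fell, 5 of 10 against 3.78% of all genes (1.19% higher and 2.59% lower). With the 2 genotypes averaged, 8 of 10 passed against 9.04% of all genes (3.01% higher and 6.03% lower): Ctla4, Tigit, Btla, Pdcd1 and Cd200 rose, and Cd96, Vsir and Cd160 fell. After rescaling by median ratios, 5 of 10 passed in KO (2.06% of all genes) and 9 of 10 in WT (7.94% of all genes). The median difference over the 10 receptors was 0.78 in KO and 1.23 in WT on the log2(FPKM + 1) scale, where the median over all genes was -0.02 in KO and 0.0003 in WT. All adjusted p-values are from limma with Benjamini-Hochberg adjustment over all genes tested, and differences are given with their SE on the log2(FPKM + 1) scale, which understates changes at low levels. In bulk RNA, fewer cells that carry a transcript and less of it per cell cannot be told apart.

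Ctla4, the competitor of CD28, was at 239, 162 and 142 FPKM in KO IRI libraries and at 66.9, 64.8 and 64.0 FPKM in KO control libraries. It was at 126, 128 and 82.1 FPKM in WT IRI libraries and at 39.4, 41.1 and 30.5 FPKM in WT control libraries. In each genotype every IRI library was above every control library, with mean levels 2.77 times (KO) and 3.03 times (WT) as high. The difference was 1.42 ± 0.24 in KO (adjusted p = 0.0269) and 1.56 ± 0.24 in WT (adjusted p = 0.00749). Its neighbours on chromosome 1, which encode 2 costimulatory receptors of the same family, did not pass. Cd28 (60716800 to 60773359) averaged 134 ± 13.7 FPKM in KO IRI, 155 ± 4.30 in KO control, 87.0 ± 25.4 in WT IRI and 97.7 ± 11.2 FPKM in WT control cells (SD, n = 3 each). Icos (60977927 to 61000320) averaged 67.0, 49.7, 51.3 and 52.0 FPKM in the same 4 groups. The adjusted p of the IRI difference was 0.695 (KO) and 0.699 (WT) for Cd28, and 0.470 and 0.998 for Icos. Inside each library, the ratio of Ctla4 to Cd28 was 1.75, 1.35 and 0.966 in KO IRI, 0.436, 0.425 and 0.400 in KO control, 1.13, 1.44 and 1.36 in WT IRI and 0.443, 0.372 and 0.325 in WT control. Ctla4 transcripts were thus near or above the Cd28 level in all 6 IRI libraries and at most 0.443 of it in all 6 control libraries.

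Pdcd1, which encodes PD-1, was at 37.3, 37.3 and 25.8 FPKM in KO IRI libraries and at 19.9, 11.1 and 12.1 FPKM in KO control libraries. It was at 28.3, 21.9 and 20.2 FPKM in WT IRI libraries and at 7.18, 11.2 and 10.1 FPKM in WT control libraries. The IRI and control libraries did not overlap in either genotype. The difference was 1.19 ± 0.26 in KO, where the adjusted p of 0.0612 missed the threshold, and 1.23 ± 0.26 in WT (adjusted p = 0.0282). After rescaling the libraries by median ratios, Pdcd1 also passed in KO (1.28 ± 0.21, adjusted p = 0.0144). Its ligand gene Cd274 (PD-L1) differed by -0.12 in KO and 0.20 in WT, with adjusted p of 0.836 and 0.682.

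Tigit and Cd96 bind the same ligand and went opposite ways. Tigit was at 58.7, 69.6 and 48.4 FPKM in KO IRI and 24.3, 23.7 and 24.7 FPKM in KO control libraries, and at 80.4, 48.3 and 43.9 FPKM in WT IRI and 16.4, 18.8 and 24.5 FPKM in WT control libraries. Cd96 was at 22.8, 17.4 and 16.3 FPKM in KO IRI and 43.7, 30.0 and 46.0 FPKM in KO control libraries, and at 13.1, 10.1 and 10.9 FPKM in WT IRI and 22.2, 23.0 and 25.01 FPKM in WT control libraries. Neither gene's IRI libraries overlapped the controls of the same genotype. Tigit rose by 1.23 ± 0.24 in KO (adjusted p = 0.0492) and by 1.45 ± 0.24 in WT (adjusted p = 0.0107). Cd96 fell by 1.03 ± 0.20 in KO (adjusted p = 0.0478) and by 0.99 ± 0.20 in WT (adjusted p = 0.0237). Cd96 over Cd3e, the ratio to a CD3 chain of the T cell receptor complex in the same library, was 0.102 ± 0.011 in KO IRI and 0.150 ± 0.023 in KO control, and 0.133 ± 0.015 in WT IRI and 0.114 ± 0.013 in WT control libraries (SD, n = 3 each). Per Cd3e transcript, Cd96 was therefore not lower in WT IRI cells, and with libraries scaled to 9 T cell identity genes the WT difference was -0.02 (adjusted p = 0.904).

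Cd226, the activating receptor for the same ligand, also fell. It averaged 22.5 ± 4.65 FPKM in KO IRI and 66.2 ± 7.61 in KO control cells, and 11.8 ± 2.89 FPKM in WT IRI and 71.6 ± 6.34 in WT control cells (SD, n = 3 each). The fall was 1.53 ± 0.21 in KO (adjusted p = 0.0111) and 2.53 ± 0.21 in WT (adjusted p = 0.000629). Inside each library, Tigit over Cd226 was 2.16, 3.88 and 2.16 in KO IRI, 0.391, 0.384 and 0.330 in KO control, 6.14, 5.69 and 3.18 in WT IRI and 0.254, 0.245 and 0.332 in WT control. Tigit thus exceeded Cd226 in all 6 IRI libraries and stayed below it in all 6 controls. The ratio of Tigit to Cd96 had means of 3.18 in KO IRI and 0.628 in KO control, and 4.98 in WT IRI and 0.844 in WT control. A scaling factor per library leaves these ratios as they are. The ligand gene Pvr differed by 0.07 in KO and 0.0004 in WT (adjusted p = 0.920 and 1.00).

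Of the HVEM receptors, Btla rose and Cd160 was lower. Btla was at 64.3, 57.9 and 70.9 FPKM in KO IRI and 34.1, 22.1 and 32.2 FPKM in KO control libraries, and at 55.9, 72.0 and 38.1 FPKM in WT IRI and 20.7, 20.3 and 14.7 FPKM in WT control libraries. The groups did not overlap in either genotype. The difference was 1.12 ± 0.25 in KO, where it did not pass (adjusted p = 0.0724) but did after rescaling (adjusted p = 0.00938), and 1.495 ± 0.25 in WT (adjusted p = 0.0113). Cd160 was at 1.04, 0.715 and 0.380 FPKM in KO IRI and 2.24, 1.07 and 0.646 FPKM in KO control libraries, which overlapped, and at 0.631, 0.614 and 1.18 FPKM in WT IRI and 5.55, 3.81 and 2.27 FPKM in WT control libraries, which did not. Its difference was -0.40 ± 0.35 in KO (adjusted p = 0.636) and -1.39 ± 0.35 in WT (adjusted p = 0.0544), and -0.89 ± 0.24 with the genotypes averaged (adjusted p = 0.0463). Cd160 is also a gene of NK and CD8 T cells. The 12 markers of those cells summed to 13.4 to 20.7 FPKM in KO IRI, 37.0 to 61.5 in KO control, 39.0 to 53.2 in WT IRI and 54.3 to 64.1 FPKM in WT control libraries. Their part in the Cd160 and Cd96 results was not tested.

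Tnfsf14, the gene of the ligand LIGHT that activates through HVEM, fell in both genotypes, by 1.59 ± 0.27 in KO (adjusted p = 0.0266) and 1.86 ± 0.27 in WT (adjusted p = 0.0058). It averaged 2.80 ± 1.05 FPKM in KO IRI and 10.5 ± 3.98 in KO control cells, and 1.30 ± 0.39 FPKM in WT IRI and 7.27 ± 0.30 in WT control cells (SD, n = 3 each). HVEM itself (Tnfrsf14) averaged 20.5 ± 3.06 FPKM in KO IRI and 24.1 ± 5.06 in KO control cells, and 9.81 ± 2.66 FPKM in WT IRI and 18.3 ± 4.24 in WT control cells (SD, n = 3 each). Its difference did not pass in KO (-0.22, adjusted p = 0.723) or in WT (-0.85, adjusted p = 0.0925), but passed in WT after rescaling (-0.80, adjusted p = 0.0382).

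**Figure D2:**
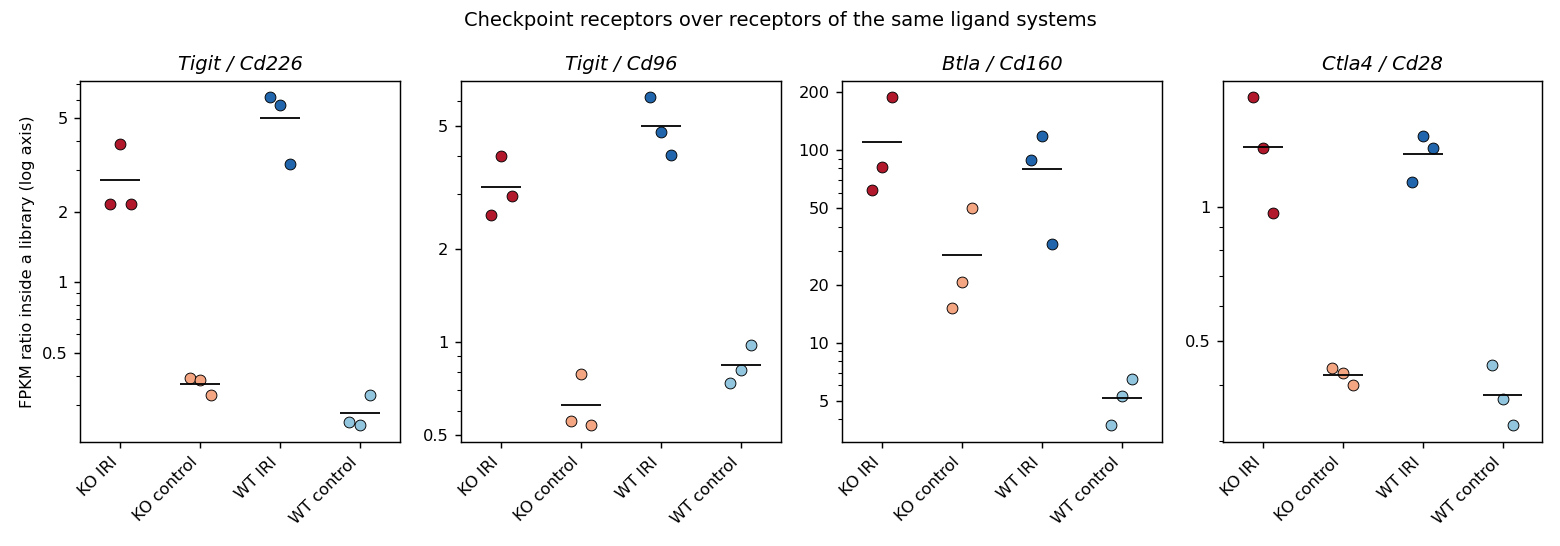
Each panel plots the ratio of 2 transcripts inside a library (vertical axis, log scale) for the 12 libraries by group, with the horizontal bar at the group mean. Tigit over Cd226, Tigit over Cd96 and Ctla4 over Cd28 were higher in all 6 IRI libraries than in all 6 controls, and Btla over Cd160 averaged 110 in KO IRI, 28.6 in KO control, 79.4 in WT IRI and 5.18 in WT control.

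Vsir, the most abundant receptor in control cells, is expressed by resting T cells and by myeloid cells. It was at 90.8, 61.3 and 67.0 FPKM in KO IRI and 120.0, 77.0 and 111 FPKM in KO control libraries, which overlapped, and at 41.0, 49.3 and 27.7 FPKM in WT IRI and 72.9, 74.9 and 81.0 FPKM in WT control libraries, which did not. The difference was -0.48 ± 0.25 in KO (adjusted p = 0.428), -0.97 ± 0.25 in WT (adjusted p = 0.0616) and -0.73 ± 0.18 with genotypes averaged (adjusted p = 0.029). Relative to Cd3e, Vsir stood at 0.393 ± 0.048 in KO IRI, 0.388 ± 0.083 in KO control, 0.456 ± 0.11 in WT IRI and 0.373 ± 0.040 in WT control (SD, n = 3 each). Those ratios overlapped, so Vsir was lower after IRI per library but not per Cd3e transcript. Macrophage and monocyte markers (10 genes) summed to 94.3 to 202 FPKM in KO IRI, 177 to 368 in KO control, 104 to 142 in WT IRI and 126 to 200 FPKM in WT control libraries, and their part in the Vsir values was not tested.

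Cd200 encodes a surface glycoprotein whose receptor CD200R1 inhibits myeloid cells. It was at 19.1, 12.6 and 37.5 FPKM in KO IRI and 9.94, 4.73 and 10.5 FPKM in KO control libraries, and at 13.0, 15.1 and 10.6 FPKM in WT IRI and 4.57, 4.08 and 3.79 FPKM in WT control libraries. The groups did not overlap in either genotype, although the KO IRI libraries spread widely, with a mean of 23.1 ± 12.9 FPKM (SD, n = 3). The difference was 1.29 ± 0.37 in KO (adjusted p = 0.139) and 1.42 ± 0.37 in WT (adjusted p = 0.0622), and it passed with the genotypes averaged (1.36 ± 0.26, adjusted p = 0.00972).

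Havcr2 and Lag3, receptors typical of terminally stimulated effector T cells, were low throughout. Havcr2 was at 6.74, 3.45 and 3.60 FPKM in KO IRI and 4.803, 2.42 and 2.24 FPKM in KO control libraries, and at 3.93, 4.76 and 2.95 FPKM in WT IRI and 1.72, 1.45 and 0.316 FPKM in WT control libraries. The groups overlapped in KO but not in WT. The difference was 0.43 ± 0.35 in KO (adjusted p = 0.610) and 1.23 ± 0.35 in WT (adjusted p = 0.0879, and 0.0329 after rescaling). Lag3 was at 2.63, 3.08 and 1.71 FPKM in KO IRI and 6.80, 1.97 and 2.46 FPKM in KO control libraries, and at 2.40, 1.62 and 1.39 FPKM in WT IRI and 1.86, 2.27 and 1.05 FPKM in WT control libraries. The Lag3 groups overlapped in both genotypes, with differences of -0.33 ± 0.36 in KO and 0.05 ± 0.36 in WT (adjusted p = 0.715 and 0.974). KO control 1 held the highest Lag3 value, and is the library with Malat1 at 0.

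**Figure D3:**
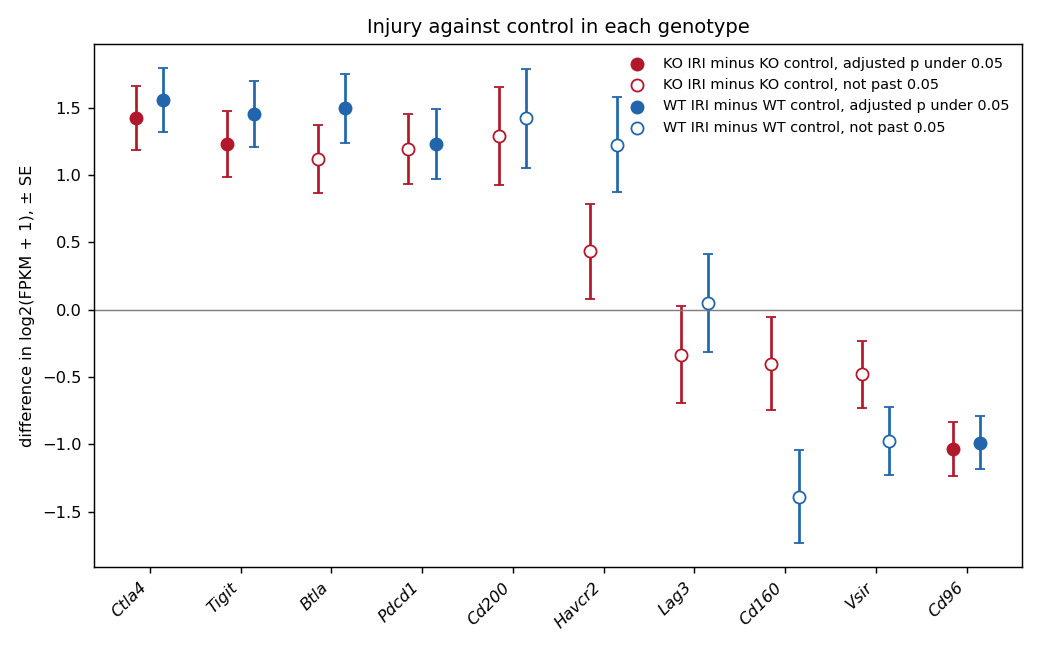
The IRI minus control difference in log2(FPKM + 1) (vertical axis) is plotted for each receptor gene in KO (left of each pair) and WT mice, with SE bars from the limma fit. Filled symbols passed an adjusted p of 0.05: Ctla4, Tigit and Cd96 in both genotypes, and Btla and Pdcd1 in WT.

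By groups that do not overlap, 6 of 10 receptors separated IRI from control in KO, where 17.4% of all genes did, and 9 of 10 in WT, against 23.7% of all genes. Over both genotypes, all 6 IRI libraries were above all 6 controls for 5 receptors, Ctla4, Tigit, Btla, Pdcd1 and Cd200, against 1.46% of all genes in that direction. Leaving out 1 library at a time kept Ctla4 and Tigit past the threshold in WT in 12 of 12 fits, Btla in 11 (0.0517 without WT control 3), and Pdcd1 and Cd96 in 7 each. The WT count fell to 2 without WT control 3, where 1.42% of all genes passed. It fell to 3 without WT IRI 2 (1.32% of all genes), WT control 1 (1.8%) or WT control 2 (1.56%). The KO count fell to 0 without KO IRI 2 (0.228% of all genes), KO control 1 (0.296%), KO control 3 (0.296%), WT control 1 (0.456%) or WT control 2 (0.43%). It fell to 1 without KO IRI 3 (0.301%), WT IRI 2 (0.477%) or WT control 3 (0.539%). In these fits the share of all genes was also below the 3.78% (WT) and 0.866% (KO) of the full fit. Without all 3 libraries that stood apart, Ctla4 (1.63), Tigit (1.77), Btla (1.59) and Cd160 (-1.79) passed in WT, against 1.16% of all genes, and none in KO, against 0.207%, where Ctla4 was at 1.44 (adjusted p = 0.0763). With genotypes averaged, that fit kept Ctla4, Tigit, Btla, Pdcd1, Cd160 and Cd96, 6 of 10 against 5.54% of all genes, and lost Cd200 (1.46, adjusted p = 0.0612) and Vsir (-0.53, adjusted p = 0.13). Ctla4, Tigit, Btla, Pdcd1, Cd200 and Cd96 passed with genotypes averaged in 12 of 12 fits that left out 1 library, Cd160 in 5 and Vsir in 4.

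The receptors' make-up shifted along with their levels. The 10 transcripts summed to 542, 426 and 414 FPKM in KO IRI, 333, 239 and 306 FPKM in KO control, 365, 352 and 239 FPKM in WT IRI and 193, 201 and 193 FPKM in WT control libraries. Ctla4 made up 38.8% ± 4.88 of that sum in KO IRI and 22.7% ± 3.84 in KO control, and 35.1% ± 1.11 in WT IRI and 18.9% ± 2.71 in WT control (SD, n = 3 each). Vsir made up 15.8% ± 1.22 in KO IRI and 34.9% ± 2.28 in KO control, and 12.3% ± 1.52 in WT IRI and 39.0% ± 2.53 in WT control (SD, n = 3 each). Cd96 took 4.08% and 13.6% in KO IRI and KO control, and 3.67% and 12.0% in WT IRI and WT control. None of the Ctla4, Vsir or Cd96 shares overlapped between IRI and control libraries. Shares of the same sum are not independent, since a rise in some receptors lowers the share of the others. The Vsir levels themselves overlapped between IRI and control libraries in KO.

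**Figure D4:**
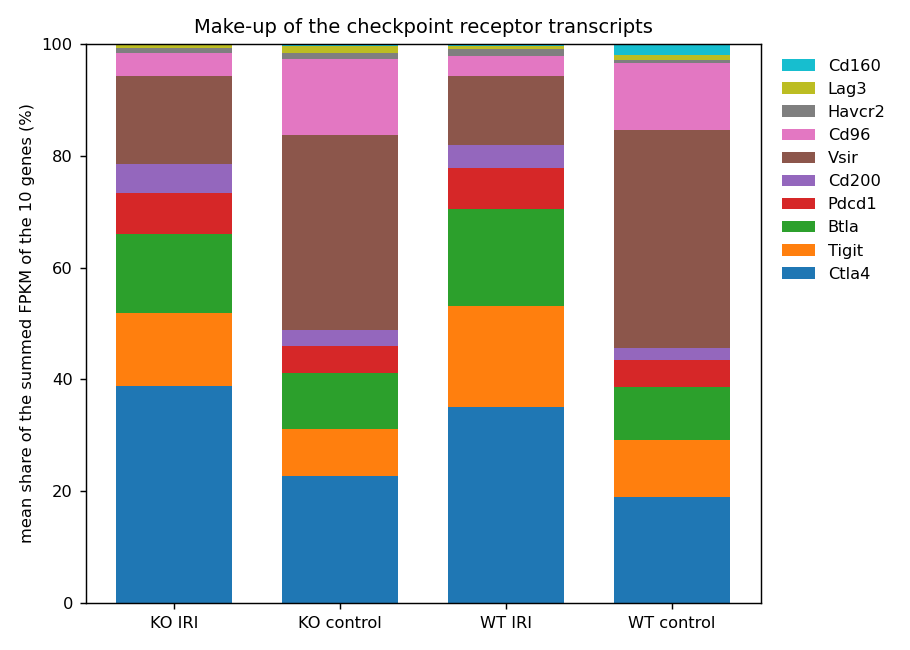
Stacked bars give the mean share (%) of each receptor in the summed FPKM of the 10 genes, for the 4 groups. Ctla4 was the largest part in KO IRI (38.8%) and WT IRI (35.1%), and Vsir in KO control (34.9%) and WT control (39.0%).

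The second comparison asked whether the receptors differed between KO and WT cells. No receptor differed between KO and WT at an adjusted p of 0.05, after IRI (0 of 10, against 0.057% of all genes) or in controls (0 of 10, against 0.0259%), while 3 of them after IRI (22.4% of all genes) and 5 in controls (20.9% of all genes) had an unadjusted p under 0.05. As deposited, the median gene was 0.26 (IRI) and 0.30 (controls) higher in KO than in WT on the log2 scale, and rescaling by median ratios reduced this to 0.019 and 0.014. The Ctla4 difference was 0.68 ± 0.24 between KO IRI and WT IRI cells (adjusted p = 0.154) and 0.81 ± 0.24 between KO control and WT control cells (adjusted p = 0.192), which became 0.38 ± 0.19 and 0.48 ± 0.19 after rescaling. The Cd96 difference was 0.68 ± 0.20 after IRI and 0.72 ± 0.20 in controls (adjusted p = 0.119 and 0.192), and 0.40 ± 0.15 and 0.39 ± 0.15 after rescaling. Vsir differed by 0.89 ± 0.25 after IRI and 0.40 ± 0.25 in controls (adjusted p = 0.112 and 0.346), and by 0.60 and 0.064 after rescaling. Cd160 was the one receptor with a lower mean in KO controls than in WT controls, at a difference of -1.07 ± 0.35 (adjusted p = 0.194). Its KO and WT control libraries did not overlap, but only narrowly, at 2.24 FPKM in KO control 1 and 2.27 FPKM in WT control 3. Both of those libraries are among the ones that stood apart. Tigit differed by 0.07 ± 0.24 after IRI and 0.29 ± 0.24 in controls, and Btla by 0.26 ± 0.25 and 0.63 ± 0.25. After rescaling, the Tigit differences became -0.22 after IRI and -0.03 in controls, and those of Btla -0.04 and 0.30.

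With injury and control averaged, Cd96 (0.70, adjusted p = 0.0264), Ctla4 (0.75, adjusted p = 0.0314) and Vsir (0.65, adjusted p = 0.0417) were called higher in KO as deposited, 3 of 10 against 13.7% of all genes (11.9% higher). After rescaling, 0 of 10 passed, against 0.55% of all genes. The count was 6 without KO control 2, where 30.6% of all genes passed. It was 1 each without KO IRI 3 (1.51% of all genes) and without WT control 3 (2.77%). It was 0 without KO IRI 1 (0.555% of all genes), KO control 1 (0.311%), KO control 3 (0.233%), WT IRI 3 (2.14%), WT control 1 (0.176%) or WT control 2 (0.264%). By libraries that do not overlap, as deposited, 3 of 10 receptors separated KO IRI from WT IRI. These were Ctla4, Vsir and Cd96, all higher in KO IRI (32.4% of all genes in either direction, 24.9% higher). Between KO control and WT control, 6 of 10 separated (23.7% of all genes did). On this scale the median gene was higher in KO, by 0.26 after IRI and 0.30 in controls. Overlap was not counted after rescaling.

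**Figure D5:**
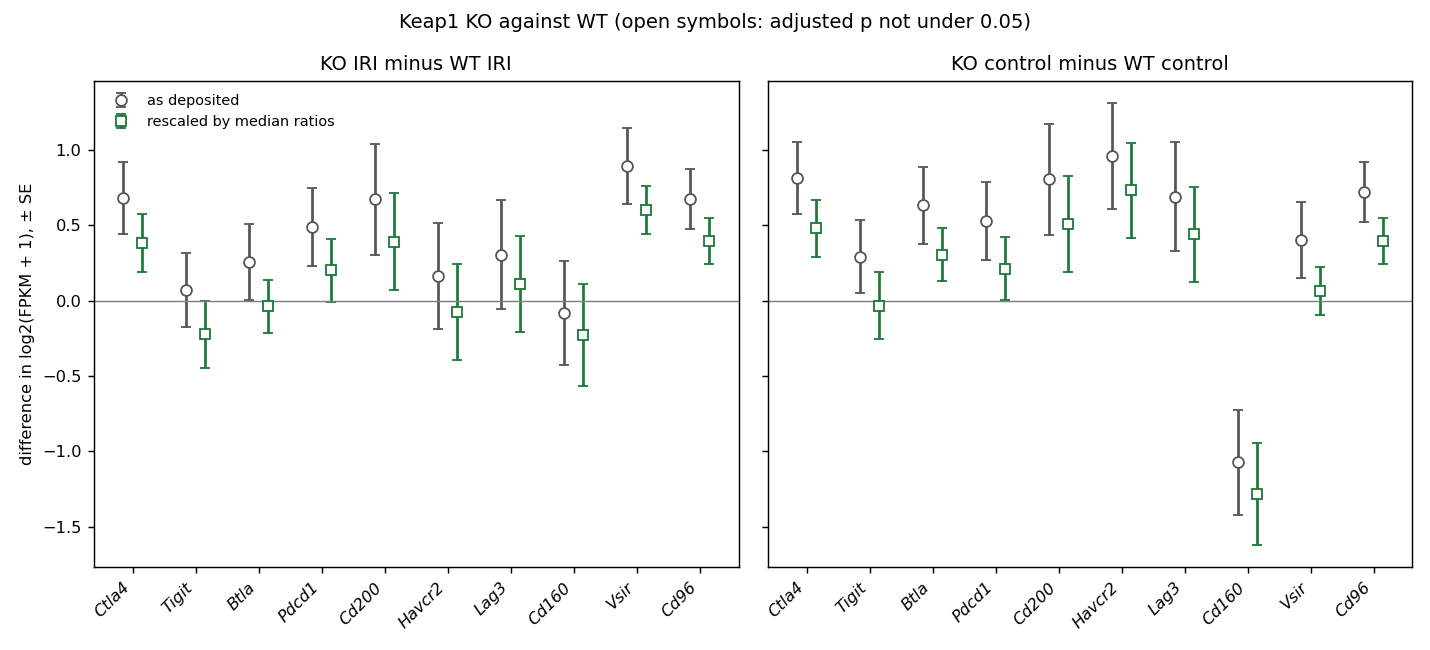
The KO minus WT difference in log2(FPKM + 1) (vertical axis) is plotted for each receptor gene after IRI (left) and in controls (right), with SE bars, from the values as deposited (circles) and after rescaling by median ratios (squares). No point passed an adjusted p of 0.05, and each square sits below the circle of the same gene.

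Whether IRI acted differently in KO and WT cells was tested by the genotype by IRI interaction, in which 0 of 10 receptors passed, 0 of 10 had an unadjusted p under 0.05 (3.35% of all genes did), and 0.00518% of all genes passed. The largest estimates were 0.99 ± 0.49 for Cd160 (unadjusted p = 0.0691), -0.79 ± 0.50 for Havcr2 and 0.49 ± 0.35 for Vsir, all with an adjusted p of 0.9995. For Ctla4, Pdcd1 and Cd96 the estimates were -0.13 ± 0.34, -0.04 ± 0.37 and -0.05 ± 0.28. Receptors called in WT but not in KO, such as Btla (-0.38 ± 0.36) and Pdcd1, are therefore not shown to differ in their response.

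Genes around the receptors were counted from lists that, like the receptors, were chosen with earlier results of these data known. Over all genes, IRI calls were 2.59% lower and 1.19% higher in WT, and 0.539% lower and 0.327% higher in KO. Of 13 other inhibitory receptors tested, 4 fell in WT and 1 in KO, and none rose. Entpd1 (CD39, an ectonucleotidase) fell by 1.143 in KO and 1.36 in WT (adjusted p = 0.0493 and 0.0104), and Cd5 (a brake on T cell receptor signals that is also in the T cell identity list) and Ly9 (a SLAM family receptor) fell by 1.40 and 1.44 in WT (adjusted p = 0.0111 and 0.00738). Klrc1, the inhibitory NK receptor NKG2A, was 2.69 ± 0.36 lower in KO IRI than in WT IRI cells (adjusted p = 0.0336). Of 16 ligand genes tested, 1 fell in each genotype, Lgals9 (galectin-9) in WT by 1.04 (adjusted p = 0.0295) and H2-Ab1 (an MHC class II chain, bound by LAG-3) in KO by 2.14 (adjusted p = 0.0401). Of 10 activating counterparts, 3 fell (Cd226, Tnfsf14 and Cd27) and 1 rose in WT, and 2 fell (Cd226 and Tnfsf14) in KO. The riser was Tnfrsf9, encoding the activation-induced costimulator 4-1BB, at 12.0 ± 5.94 FPKM in KO IRI and 3.03 ± 0.53 in KO control cells, and 8.97 ± 2.40 in WT IRI and 2.00 ± 0.65 FPKM in WT control cells (SD, n = 3 each). Its difference was 1.56 in KO (adjusted p = 0.0774) and 1.73 in WT (adjusted p = 0.0275). After rescaling, Tnfrsf9 (1.61, adjusted p = 0.0472) and Tnfrsf4 (OX40, 1.00, adjusted p = 0.0261) passed in KO as higher and Cd27 (-1.14, adjusted p = 0.04) as lower.

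Among 22 signalling genes near the receptor tails, Cblb alone rose, by 1.54 ± 0.25 in KO (adjusted p = 0.0199) and 1.95 ± 0.25 in WT (adjusted p = 0.00335). Cblb encodes a ubiquitin ligase that restrains T cell activation, and averaged 102 ± 32.6 FPKM in KO IRI and 33.4 ± 4.37 in KO control cells, and 97.9 ± 17.4 FPKM in WT IRI and 24.5 ± 2.97 in WT control cells (SD, n = 3 each). In WT 5 others of the 22 fell, among them the kinases Lck and Fyn and the adaptor Dok2, and in KO none did. After rescaling, 8 fell in WT and 1 in KO, where 7.94% and 2.06% of all genes passed in either direction. As deposited, 2.59% of all genes were called lower in WT and 0.539% in KO, and 1.19% and 0.327% higher. Of 13 genes that traffic or cleave the receptors, 2 fell in WT, Trat1 (encoding TRIM, which carries CTLA-4 to the surface) by 1.05 (adjusted p = 0.0204) and Fut8 (which core-fucosylates PD-1) by 1.02 (adjusted p = 0.0442), and none passed in KO. Trat1 was also 1.46 ± 0.20 higher in KO IRI than in WT IRI cells (adjusted p = 0.0416). Of 25 transcription regulators, Tbx21 (T-bet, the Th1 factor) fell by 1.70 in KO (adjusted p = 0.00405) and 2.18 in WT (adjusted p = 0.000629). In WT, Nfatc2 and Irf4 also fell and Stat3 rose by 1.19 (adjusted p = 0.0277).

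Regulatory T cells carry much Ctla4 and Tigit, so their markers were set beside the receptors. Foxp3 averaged 17.5 ± 11.2 FPKM in KO IRI and 13.4 ± 0.69 in KO control cells, and 9.92 ± 2.59 FPKM in WT IRI and 8.01 ± 1.19 in WT control cells (SD, n = 3 each). Its IRI difference was 0.18 in KO and 0.26 in WT (adjusted p = 0.862 and 0.787). Of the 10 markers, Ikzf4 (the Foxp3 partner Eos) alone rose, by 1.79 in KO and 1.54 in WT (adjusted p = 0.00684 and 0.00551), and none fell in either genotype, while Nrp1, Ikzf2 and Capg fell with the genotypes averaged (by 0.86, 0.86 and 0.80). Of all genes, 0.327% (KO) and 1.19% (WT) were called higher, and 6.03% were called lower with the genotypes averaged. The list summed to 124 to 253 FPKM in KO IRI, 150 to 220 in KO control, 81.7 to 101 in WT IRI and 102 to 139 FPKM in WT control libraries. Ctla4 over Foxp3 was 12.3 ± 5.18 in KO IRI and 4.88 ± 0.37 in KO control, and 11.4 ± 1.57 in WT IRI and 4.68 ± 0.96 in WT control (SD, n = 3 each). That ratio was higher in all 6 IRI libraries than in all 6 controls. Tigit over Foxp3 was at 1.97, 4.65 and 6.15 in KO IRI and 1.91, 1.76 and 1.76 in KO control libraries, and at 6.39, 4.95 and 5.93 in WT IRI and 2.38, 2.03 and 3.10 in WT control libraries. It did not separate all IRI libraries from all controls, since the lowest KO IRI library lay below the 3 WT control libraries.

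Of 10 T cell identity genes, 5 were called lower after IRI in WT (2.59% of all genes were) and 1, Cd3g, in KO (0.539%). Cd3e was at 185 ± 16.3 FPKM in KO IRI and 267 ± 50.5 in KO control, and 86.0 ± 12.5 in WT IRI and 206 ± 10.1 FPKM in WT control cells (SD, n = 3 each). Neutrophil markers (8 genes) summed to 4.21 to 34.0 FPKM in KO IRI, 2.74 to 4.83 in KO control, 19.3 to 39.6 in WT IRI and 4.26 to 9.05 FPKM in WT control libraries. Tubule markers (10 genes) summed to 14.2 to 335 FPKM in KO IRI, 0.641 to 55.4 in KO control, 13.2 to 146 in WT IRI and 9.87 to 92.1 FPKM in WT control libraries. B and plasma cell markers (10 genes) summed to 62.0 to 178 FPKM in KO IRI, 345 to 1723 in KO control, 43.4 to 64.7 in WT IRI and 126 to 231 FPKM in WT control libraries. The part of these transcripts in the results was not tested. When libraries were instead scaled to 9 T cell identity genes, Ctla4, Tigit, Btla, Pdcd1 and Cd200 rose by more in each genotype, by 1.95, 1.75, 1.64, 1.68 and 1.76 in KO and by 2.57, 2.46, 2.50, 2.22 and 2.38 in WT, while the median gene also moved up by 0.37 and 0.83. On that scale the lower Vsir level was gone (0.06 in KO and 0.03 in WT), Cd96 was lower in KO (-0.50, adjusted p = 0.0295) but not in WT (-0.02), and Tigit and Btla were lower in KO IRI than in WT IRI cells (-0.97 and -0.78, adjusted p = 0.0158 and 0.0187), where the median gene was at -0.60. On that scale 6 of 10 passed for IRI in KO (11.3% of all genes) and 6 of 10 for IRI in WT (50.9%). For KO IRI against WT IRI, 2 of 10 passed (35.2% of all genes). Cd4 was left out of the scaling genes because it differed between genotypes (1.62 higher in KO with conditions averaged, adjusted p = 0.00882). Among those used, Cd5 (1.16), Cd3g (0.88), Lat (0.90) and Bcl11b (0.86) were also called higher in KO, where 11.9% of all genes were. Genotype differences on that scale are relative to these genes.

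For each receptor called in any comparison, the 2 protein-coding genes with the most similar pattern were found by the mean absolute difference between centred, rescaled log2 values over the 12 libraries. Ctla4 was closest to Fkbp5 (0.18), a glucocorticoid-induced immunophilin, and to Ssh2 (0.18), a cofilin phosphatase, whose levels were 50.3 and 259 FPKM in KO IRI, 20.2 and 116 in KO control, 31.7 and 196 in WT IRI and 10.8 and 64.5 FPKM in WT control cells. Btla was closest to Rpain (0.14) and Ssh2 (0.15), Tigit to Sh3gl3 (0.14) and Maff (0.19), Pdcd1 to Nmrk1 (0.17) and Psd (0.20), and Cd200 to Rpain (0.15) and Sh3bp5 (0.22). Among the receptors that were lower, Cd96 was closest to Arhgdib (0.09) and Apbb1ip (0.11), Vsir to Os9 (0.08) and Slc9a3r1 (0.08), and Cd160 to Chst2 (0.25) and the cytokine gene Il4 (0.25). Ssh2 was near both Ctla4 and Btla, and Rpain near both Btla and Cd200. These are descriptions of 12 libraries that share 4 group means.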

How the data were processed

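Total RNA of flow-sorted kidney CD4 T cells (1 ng per library) was sequenced as paired 36 bp reads on a NextSeq 500, per the labels' protocols. The authors deposited 1 FPKM value per gene and library, per the file headers. The build GRCm38 and the tools Cufflinks 2.2.1, TopHat2 2.1.0, Partek 7.0 and bcl2fastq 2.17.1.14 are listed, with no roles, per the submitters' processing notes. Strand setting and annotation release are not given in the sources used here.

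Symbols came from gene IDs with the version removed (52399 of 52632 matched). The 19288 genes averaging 1 FPKM or more were tested with limma 3.58.1 (R 4.3.3, lmFit and eBayes with trend) on log2(FPKM + 1), all 12 libraries in 1 fit with 4 group means, with Benjamini-Hochberg adjustment within each of 7 comparisons and a threshold of 0.05. The script was tested on simulated data. For the rescaled values, a size factor per library (the median, over 16018 genes, of its value divided by the gene's geometric mean) was divided out. The alternatives were pseudocounts of 0.1 and 5, no filter, rescaling, quantile normalization, a replicate block, leaving out libraries, and, chosen after seeing the data, scaling to 9 T cell identity genes. All 10 receptors are described. From other lists, up to 4 called genes per comparison, those of smallest adjusted p, could be named, and genes that define a marker list, share a ligand with a receptor or flank Ctla4 are given by level. Positions are from GENCODE mouse release 21 (GRCm38) and promoters from RefSeq. The receptors and lists were chosen with earlier results of these data known. FPKM gives no counts, so depth is unknown and no counting error is given.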

Additional observations from a re-analysis of the deposited data

How the results depend on the processing

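The counts of receptors past the threshold for IRI in KO (3) became 0 without the filter (0.164% of all genes), 5 after rescaling (2.06%), 5 after quantile normalization (1.70%), 1 with the replicate block (0.741%), 0 without the 3 libraries that stood apart (0.207%) and 6 when scaled to T cell identity genes (11.3%). For IRI in WT (5) they became 9 after rescaling (7.94% of all genes) and 9 after quantile normalization (9.16%). For KO against WT averaged (3) they became 0 without the filter (0.444% of all genes), after rescaling (0.55%), after quantile normalization (0.28%) and without the 3 libraries (0.28%). For KO against WT after IRI (0) the count was 2 when scaled to T cell identity genes (35.2% of all genes). Leaving out 1 library at a time gave counts of 2 to 7 for IRI in WT (1.32% to 4.75% of all genes), 0 to 3 for IRI in KO (0.228% to 4.40%), 6 to 8 for IRI averaged (5.41% to 13.6%), 0 to 6 for KO against WT averaged (0.176% to 30.6%), 0 to 1 for KO against WT in controls (0.0207% to 10.2%), and 0 in the other comparisons. The 1 call in controls, Cd96 without KO control 2, came where 10.2% of all genes passed. In the comparisons with 0, the shares were 0% to 2.86% (KO against WT after IRI) and 0.0104% to 0.0622% (interaction). Of 19 receptor calls, 19 were kept with a pseudocount of 0.1, 17 with 5, 10 with no filter, 16 each with rescaling, quantile normalization and the replicate block, 9 without the 3 libraries that stood apart, and 13 with scaling to T cell identity genes, which turned the sign of 4. Same-numbered libraries correlated at -0.0371 to 0.202 over 18 pairs, 1 of them over 0.1. Libraries of other numbers correlated at -0.147 to 0.119 over 36 pairs, and 7 of 12 libraries correlated best with their own number. With 3 libraries a group these values cannot decide whether the numbers pair the libraries, and the main fit did not pair them. With rescaling, log2 differences that changed sign were, in KO against WT after IRI Btla -0.038, Havcr2 -0.073, Tigit -0.22, and in the interaction Cd96 0.0036, and in KO against WT in controls Tigit -0.033, and in KO against WT averaged Tigit -0.13. With quantile normalization, log2 differences that changed sign were, in KO against WT after IRI Btla -0.20, Cd160 0.0084, Tigit -0.40, and in the interaction Cd96 0.011, and in IRI in WT Lag3 -0.028, and in KO against WT in controls Tigit -0.11, Vsir -0.084, and in KO against WT averaged Tigit -0.26. With scaling to T cell identity genes, log2 differences that changed sign were, in KO against WT after IRI Btla -0.78, Cd200 -0.33, Cd96 -0.32, Ctla4 -0.37, Havcr2 -0.72, Lag3 -0.43, Pdcd1 -0.53, Tigit -0.97, Vsir -0.14, and in KO against WT averaged Btla -0.35, Cd200 -0.015, Cd96 -0.075, Ctla4 -0.059, Havcr2 -0.094, Lag3 -0.085, Pdcd1 -0.27, Tigit -0.61, Vsir -0.15, and in IRI averaged Lag3 0.41, Vsir 0.045, and in IRI in KO Lag3 0.064, Vsir 0.058, and in KO against WT in controls Tigit -0.25, Vsir -0.17, and in IRI in WT Vsir 0.033. With leaving out the 3 libraries that stood apart, log2 differences that changed sign were, in KO against WT after IRI Cd160 0.058, Tigit -0.10, and in the interaction Lag3 0.13, Pdcd1 0.063, and in IRI averaged Lag3 0.031, and in IRI in KO Lag3 0.095, and in IRI in WT Lag3 -0.033. With a pseudocount of 5, log2 differences that changed sign were, in the interaction Cd200 0.040, Pdcd1 0.030. Leaving out 1 library changed a sign, over the ranges given, for Cd160 in KO against WT after IRI (-0.22 to 0.062), Cd200 in the interaction (-0.54 to 0.21), Cd96 in the interaction (-0.24 to 0.066), Ctla4 in the interaction (-0.35 to 0.021), Havcr2 in KO against WT after IRI (-0.093 to 0.31), Lag3 in the interaction (-0.65 to 0.043), Lag3 in IRI averaged (-0.28 to 0.073), Lag3 in IRI in KO (-0.60 to 0.095), Lag3 in IRI in WT (-0.14 to 0.20), Pdcd1 in the interaction (-0.19 to 0.21), Tigit in the interaction (-0.39 to 0.042), Tigit in KO against WT after IRI (-0.10 to 0.33). Apart from the T cell scaling, no setting turned the sign of a receptor that had passed. The cause of these changes was not tested. Depth is unknown, and Havcr2, Lag3 and Cd160 lie near 1 FPKM in some libraries.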
